A study of Mus musculus with 8 samples.

Results

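The 8 libraries of naive CD8 T cells divide by their level of Hsph1, a large cytosolic chaperone of the heat shock response, into 4 with a normalized read count of at least 10000 and 4 below it. The division takes in all 8 libraries of the series, and each side holds 2 Brca1 wild type (WT) and 2 Brca1 heterozygous (Het) libraries. The high libraries were WT 45, WT 65, Het 53 and Het 56, and the low libraries were WT 54, WT 57, Het 31 and Het 139, each named by genotype and the number in its sample title. All came from spleens of C57BL/6 mice at an age of 3 months, with cells taken straight from splenocytes and no treatment named. The labels name neither the kind of Brca1 allele nor the mouse behind each library, so a p-value here covers spread among libraries, which may be partly technical.

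Cells answer heat and other protein damage by releasing the transcription factor HSF1, which binds repeats of the letters GAA in alternating orientation near gene starts and switches on chaperones. HSP70 chaperones hold and refold proteins with the help of J domain proteins, which deliver clients, and of nucleotide exchange factors such as HSP110, which release them. HSP90 takes over later folding steps of kinases and receptors with its own set of cochaperones.

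The sides were chosen by the measured Hsph1 value of these same libraries, so every difference between its sides is given as a description and no test was made of it. Hsph1 itself had normalized read counts of 21019.9 in WT 45, 17300.9 in WT 65, 10522.7 in Het 53 and 14033.5 in Het 56, against 8557.6 in WT 54, 8421.6 in WT 57, 2543.9 in Het 31 and 3553.2 in Het 139. Het 53 lay just inside the threshold and WT 54 just outside it, and within each genotype the gap was wider than across the threshold. High minus low, with genotype as a term, Hsph1 differed by 1.59 on the log2(value + 1) scale (SE 0.18), by 1.17 between the WT libraries and by 2.01 between the Het libraries.

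Measures of depth overlapped between the sides. Genes above 0 numbered 14012 to 15550 in the high and 13863 to 15569 in the low libraries, and the number of different values up to 100, which estimates the reads behind a value of 100, was 74 to 128 and 85 to 125. Some libraries carried transcripts of other tissues: the summed level of 10 pancreatic enzyme genes ran from 16.7 in WT 45 to 58538.5 in Het 139, and that of pituitary hormone genes from 36.3 in WT 54 to 13405.5 in WT 45. Both sums overlapped between the sides.

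Gene starts with the heat shock element give the sequence side of the split. The element was searched on both strands as a pair of units, GAANNTTC, and as 3 alternating units, the pair followed after 2 further bases by another GAA, so that each longer match contains the pair. The reversed pair, TTCNNGAA, was searched as well, but matches to it alone are not marked in the windows printed. The windows are from RefSeq on build GRCm38.p6, matched by gene name because the deposited values use mm9, and they run from 250 bases before to 50 bases after each start site. Of all 32851 windows, 198 (0.603%) held the 3-unit motif and 2582 (7.86%) the pair. Here 4 windows are printed from 220 bases before to 30 bases after the start, 5′ to 3′ on the gene's strand, with matches to either motif in capitals. Hsph1 defines the split, Chordc1 held the most matches among the chaperones shown, Hspa1b held the pair alone, and Vwce was the gene outside the chaperone lists with the largest difference among those named.
Hsph1, chr5:149636286-149636535 (- strand): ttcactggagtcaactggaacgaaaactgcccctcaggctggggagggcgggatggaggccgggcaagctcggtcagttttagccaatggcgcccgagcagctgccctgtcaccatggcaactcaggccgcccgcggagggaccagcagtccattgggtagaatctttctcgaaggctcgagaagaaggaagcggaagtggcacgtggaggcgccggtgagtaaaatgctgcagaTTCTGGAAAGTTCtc
Chordc1, chr9:18292047-18292296 (+ strand): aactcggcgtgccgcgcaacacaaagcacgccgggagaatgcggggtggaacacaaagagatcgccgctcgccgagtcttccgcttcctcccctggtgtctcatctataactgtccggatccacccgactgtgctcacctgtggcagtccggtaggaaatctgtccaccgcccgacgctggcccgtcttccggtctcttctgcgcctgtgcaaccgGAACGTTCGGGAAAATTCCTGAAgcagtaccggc
Hspa1b, chr17:34959209-34959458 (- strand): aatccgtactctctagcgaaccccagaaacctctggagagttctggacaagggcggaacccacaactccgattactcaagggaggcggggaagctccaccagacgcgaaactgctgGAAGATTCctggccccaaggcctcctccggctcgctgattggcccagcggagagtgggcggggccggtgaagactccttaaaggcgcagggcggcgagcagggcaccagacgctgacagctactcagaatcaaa
Vwce, chr19:10634013-10634262 (+ strand): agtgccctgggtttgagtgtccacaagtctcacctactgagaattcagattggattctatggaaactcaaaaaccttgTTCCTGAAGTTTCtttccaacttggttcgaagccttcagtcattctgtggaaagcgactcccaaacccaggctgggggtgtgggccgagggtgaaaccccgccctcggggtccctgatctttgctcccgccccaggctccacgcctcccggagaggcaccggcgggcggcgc
Hsph1 had 2 windows, ranked by their motif matches, and only the first is printed. In that window the match began 16 bases into the transcript, counting the start site as base 1. In Chordc1 3 overlapping matches began 4 bases before the start and 2 and 7 bases into the transcript. The pair in Hspa1b began 104 bases before the start, and the 3-unit match in Vwce began 142 bases before it.

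The 12048 genes with a mean of at least 10 were compared. A gene was counted as apart when its difference was at least 2-fold and its 4 high and 4 low libraries did not overlap. In all, 79 genes (0.656%) were apart, 58 of them higher (0.481%) and 21 lower (0.174%) in the high libraries. Without the 2-fold limit, the sides did not overlap for 1685 genes (14.0%), of which 906 were higher (7.52%) and 779 lower (6.47%). These shares are the background for every count that follows. The counts depend on each library, since fewer libraries overlap less often: 142, 169, 125 and 160 genes were apart without WT 45, WT 57, WT 65 and Het 53. Of these, 92 and 112 were higher without WT 45 and WT 57, and the lower genes numbered 27 to 81 with a library left out, 81 without Het 53. The sides did not overlap for 2630 genes without WT 57. Since the libraries were divided by a chaperone gene, the chaperone counts describe what was selected.

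The chaperones that separated the sides by at least 2-fold were 5 of the 63 compared: Hsph1, Hspa1a, Hspa1b, Hspa4l and Ahsa2. Together 15 of the 63 were higher in the high libraries with no overlap and 3 were lower. The median difference over the 63 was 0.02 on the log2 scale, with 33 higher and 30 lower, beside a median of -0.01 and a share of 48.5% higher over all genes compared, so the separation lay in a minority of chaperone genes.

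Among the HSP70 and HSP110 chaperones, the stress-inducible HSP70 genes differed most. Hspa1b was at 176.6, 93.8, 34.9 and 34.4 in WT 45, WT 65, Het 53 and Het 56, and at 14.8, 20.1, 11.1 and 4.8 in WT 54, WT 57, Het 31 and Het 139, a log2 difference of 2.46 (SE 0.41). Hspa1a was at 45.7, 18.8, 13.1 and 30.1 in the same high libraries and at 1.2, 4.9, 1.5 and 0 in the low ones, a log2 difference of 3.40 (SE 0.71). Both genes were low throughout, the low libraries rest on a few reads, and reads of these near-identical copies could be split between them, so their separate values are uncertain.

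Hspa4l, an HSP110 family exchange factor, had values of 1282.5, 1275.4, 801.1 and 890.8 in the high libraries against 608.4, 563.1, 369.2 and 356.6 in the low ones (difference 1.17, SE 0.09). Its WT and Het differences were 1.13 and 1.22. The constitutive members did not separate the sides: Hspa8, the main HSP70 of unstressed cells, ran from 6965.9 to 20945.4 in the high and from 5137.1 to 16971.2 in the low libraries (difference 0.17, SE 0.40). Hspa4, the constitutive relative of Hspa4l, stayed between 5611.9 and 6477.5 in all 8 libraries (difference -0.01).

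Of the 16 J domain proteins compared, 4 were higher without overlap, each by less than 2-fold. Dnaja1, a partner of HSP70, was at 3429.9, 3558, 2903.1 and 2862.3 in the high libraries and at 2359.1, 2222.4, 1635.9 and 1267.2 in the low ones (difference 0.81, SE 0.11). Dnaja4 differed by 0.67, Dnajb1 by 0.50 and Dnajb4 by 0.50. Dnajb1 is the classical inducible J protein, and it spanned 6253.1 to 8408.8 in the high and 4161.2 to 6099.4 in the low libraries. The list as a whole did not lean far: its median difference was 0.12.

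HSP90 and its cochaperones had the largest median of the chaperone lists, 0.36 over 16 genes, with 12 members higher and 4 lower. Ahsa2, which resembles the activator of the HSP90 ATPase, was at 3277, 3095.9, 1836.7 and 2724.3 in the high libraries and at 1487.1, 1250.3, 777 and 863 in the low ones (difference 1.34, SE 0.13). Hsp90aa1, the inducible HSP90, was at 4935.5, 3357.4, 2371.1 and 3420.9 against 2009.6, 2252.2, 1313.1 and 1432.1, just under 2-fold (difference 0.99, SE 0.14). Chordc1, an HSP90 cochaperone, was at 8402.3, 7855.1, 5801.4 and 7058.1 against 4675.6, 4702, 3099.9 and 2837.9 (difference 0.95, SE 0.09). For these 3 genes the Het low libraries were the lowest of all and the WT high libraries included the highest. Ptges3, the p23 cochaperone, differed by 0.33 without overlap.

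Several HSP90 partners leaned the same way but overlapped. The constitutive Hsp90ab1 ran from 73524.2 to 139105.4 in the high and from 58398.3 to 79147.9 in the low libraries (difference 0.63, SE 0.15), where Het 53 lay below WT 54 and WT 57. The same library made Stip1, which links HSP70 to HSP90, overlap: it stood at 9185.3 in Het 53 and at 9875.4 in WT 54 (difference 0.86). Ahsa1 and Fkbp4, 2 further HSP90 cochaperones, differed by 0.66 and 0.47 with overlap. Ppp5c, a phosphatase that docks on HSP90, was lower in the high libraries without overlap, by a small difference of -0.19.

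St13, which binds HSP70 and slows its release of ADP, was at 6563.8, 5963.2, 4572.8 and 6624.9 in the high and at 4165.8, 4002.1, 2515.1 and 3705.2 in the low libraries (difference 0.73, SE 0.14). Bag4, an exchange factor, was higher by 0.16 and Hspbp1, another, was lower by a difference of -0.27, both without overlap. Of the regulators, Hsf2 was higher by 0.31 and Hsbp1, which binds HSF1, was lower by a difference of -0.34. Hsf1 itself ran from 3295.4 to 4104 in the high and from 3150.6 to 4272.3 in the low libraries (difference -0.05). Members named here that were neither apart nor named by the naming rule were chosen after their values were seen.

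**Figure D1:**
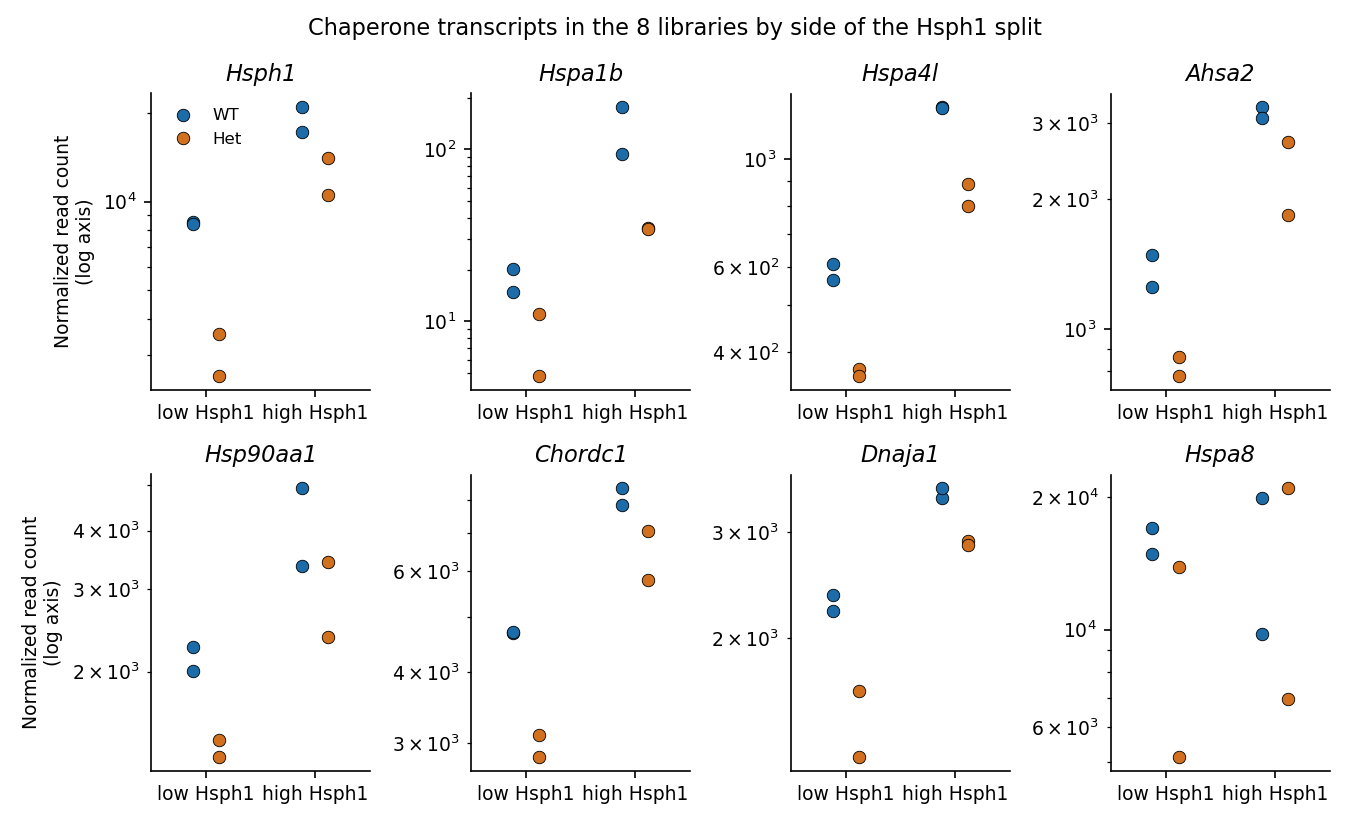
Normalized read count (log axis, a separate range in each panel) of 8 chaperone transcripts in each library, by side of the Hsph1 split; each point is 1 library, blue for WT and orange for Het. The sides do not overlap for Hsph1, Hspa1b, Hspa4l, Ahsa2, Hsp90aa1, Chordc1 and Dnaja1, and they overlap for Hspa8.

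The heat shock element was present in some of the chaperones that separated the sides. Of the 15 members higher without overlap, 12 had a window. Among those 12, 2 (16.7%) held the 3-unit motif, Hsph1 and Chordc1, and 6 of the 12 held the pair, beside 0.602% and 7.10% of the genes compared that had a window. Hsph1 held each motif searched and is among the 12 by the choice of the split. Of the 38 other chaperone members with a window, 1 (2.63%) held the 3-unit motif and 7 (18.4%) the pair. Over all genes the shares with and without the motif were close: the 57 genes compared with a 3-unit match had a median difference of 0.06, and 5 of them (8.77%) were higher without overlap, beside 7.45% of the 9412 genes without it. Of the 79 genes apart, Hsph1 and Vwce held the 3-unit motif among those with a window. The reversed pair went another way. It was in 3 of the 48 genes apart and higher that had a window (6.25%). Of the 16 apart and lower, 5 (31.2%) held it, beside 8.36% of the genes compared. Among the chaperones, 3 of the 12 (25.0%) and 2 of the 38 others (5.26%) held it.

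Other folding systems showed no common shift. The TRiC chaperonin and prefoldin genes had a median of 0.05, mitochondrial chaperones and proteases -0.03, and endoplasmic reticulum chaperones with the unfolded protein response -0.07. Single genes separated the sides: Cct3, a TRiC subunit, was at 8262.8, 9433.9, 8342.2 and 8692.2 in the high and at 6610.7, 6419.1, 6734.6 and 5856.1 in the low libraries (difference 0.44, SE 0.07). Dnajb9, a J protein of the endoplasmic reticulum, was higher by 0.43 and Sdf2l1, a chaperone cofactor of that compartment, was lower by a difference of -0.37, both without overlap. Hspd1, the mitochondrial HSP60, differed by 0.53 with overlap. The integrated stress response list had 9 members higher and 9 lower (median -0.04).

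Outside the chaperone lists, 53 genes were apart and higher. The genes named are among the 12 with the largest difference under the naming rule. Vwce, a secreted protein with von Willebrand factor C domains, was at 109.3, 86.8, 48.2 and 175.7 in the high libraries and at 21.9, 16.4, 5.6 and 12.2 in the low ones (difference 2.81, SE 0.48), the lowest high library being more than 2-fold above the highest low one. Lbp, which binds lipopolysaccharide, was at 452.8, 431.8, 245.6 and 590.8 against 127.9, 149.4, 81.1 and 101.9 (difference 1.86). Slc5a3, a sodium-coupled myo-inositol carrier, was at 1185.7, 1446, 1017.2 and 886.1 against 471.7, 622.4, 300 and 286.8 (difference 1.48). These 3 genes had clear gaps between the sides in both genotypes.

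Plin2, a coat protein of lipid droplets, was at 827.5, 642.4, 471 and 702.5 in the high libraries against 344.1, 278.9, 202.5 and 313 (difference 1.21). Others were Zcchc12 (2.03), the BMP receptor Bmpr2 (1.43), the synaptic adhesion protein Nlgn3 (1.36), Gprasp2 (1.30), the nuclear receptor Rora (1.29), the adhesion receptor Gpr125 (1.25) and the nuclear receptor Nr4a2 (1.23). Gpr125 came under 2-fold without Het 56 (0.92) and Nr4a2 without WT 54 (0.99). Of the 58 genes higher and apart, 33 were at least 2-fold higher in WT and in Het taken separately, and 17 had a mean under 50.

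Immediate early and NF-kB genes stood partly with the chaperones. Of 26 immediate early genes, which cells transcribe within minutes of a stimulus, 16 were higher and 10 lower (median 0.21), and 6 were higher without overlap: Fosb, Fosl2, Jun, Nr4a2, Klf6 and Maff. The median of this list was 0.41 in WT and 0.06 in Het. Fosb was at 1444.7, 1569.9, 1105.1 and 1111.9 in the high and at 806.3, 975.9, 714.4 and 516.4 in the low libraries (difference 0.81, SE 0.12). Maff was at 343.5, 157.9, 156.3 and 151.9 against 56.2, 74.5, 83.5 and 125.2 (difference 1.21, or 0.86 without WT 45). Egr1 and Junb, both of the same class, overlapped, with differences of -0.17 and -0.06, so the class did not separate as a whole.

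Tnfaip3, the NF-kB inhibitor A20, was at 32126.4, 28277.8, 27476.4 and 17058.2 in the high and at 9635.3, 11142, 12514.1 and 11689.3 in the low libraries (difference 1.19, SE 0.18). Its difference was 1.54 in WT and 0.84 in Het. Rel, an NF-kB subunit of lymphocytes, was at 831, 969.5, 888.5 and 829.9 against 523.6, 663.6, 487.1 and 541 (difference 0.67), and Nfkbiz and Nfkb1 were also higher without overlap. The NF-kB list of 17 genes had a median of 0.03, with 10 higher and 7 lower, while its summed level did not overlap: 65754.5 to 81893.2 in the high and 52974 to 58664.5 in the low libraries. Its median was 0.26 in WT and 0.01 in Het. Tnfaip3 was the most abundant of the 4 genes named.

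Early activation markers were mixed. Cd69, an early surface marker of T cell activation, was at 11259.1, 9140.3, 9474.9 and 5693.3 in the high and at 4568.5, 4422.9, 4943.2 and 5348.7 in the low libraries (difference 0.84, SE 0.18). Ctla4, an inhibitory receptor, was at 1011.6, 863.2, 1031.2 and 801.5 against 488.8, 508.8, 489.7 and 538.5 (difference 0.86, SE 0.11). Cd5, which dampens T cell receptor signals, was lower in the high libraries by a difference of -0.38 without overlap, and Il2ra, the IL-2 receptor chain of activated cells, overlapped at a difference of -0.90. The list of 18 activation markers had a median of -0.18, with 6 higher and 12 lower. Its median was -0.01 in WT and -0.45 in Het, and it ran from -0.375 without WT 65 to -0.01 without Het 56.

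Of 15 regulators of mRNA decay and quiescence, 10 were higher and 5 lower (median 0.09). Within both genotypes taken separately, 2 were higher and 4 lower without overlap. Zfp36l2, which binds AU-rich transcripts, was at 45657.9, 27925.1, 39274 and 32538.4 in the high and at 24643.6, 21668.1, 20342 and 22803 in the low libraries (difference 0.68, SE 0.15). Rc3h1, the RNA-binding protein roquin, was higher by 0.59 without overlap. The long nuclear RNA Malat1 was at 66283.6, 40051.4, 51007.5 and 37414.4 against 29338.4, 30383.9, 19139.6 and 18659.4 (difference 0.998, SE 0.17). Cirbp, an RNA-binding protein induced by mild cold, was lower in the high libraries, by a difference of -0.51. Its WT libraries were almost level, with a difference of -0.06, and its Het libraries differed by -0.96.

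**Figure D2:**
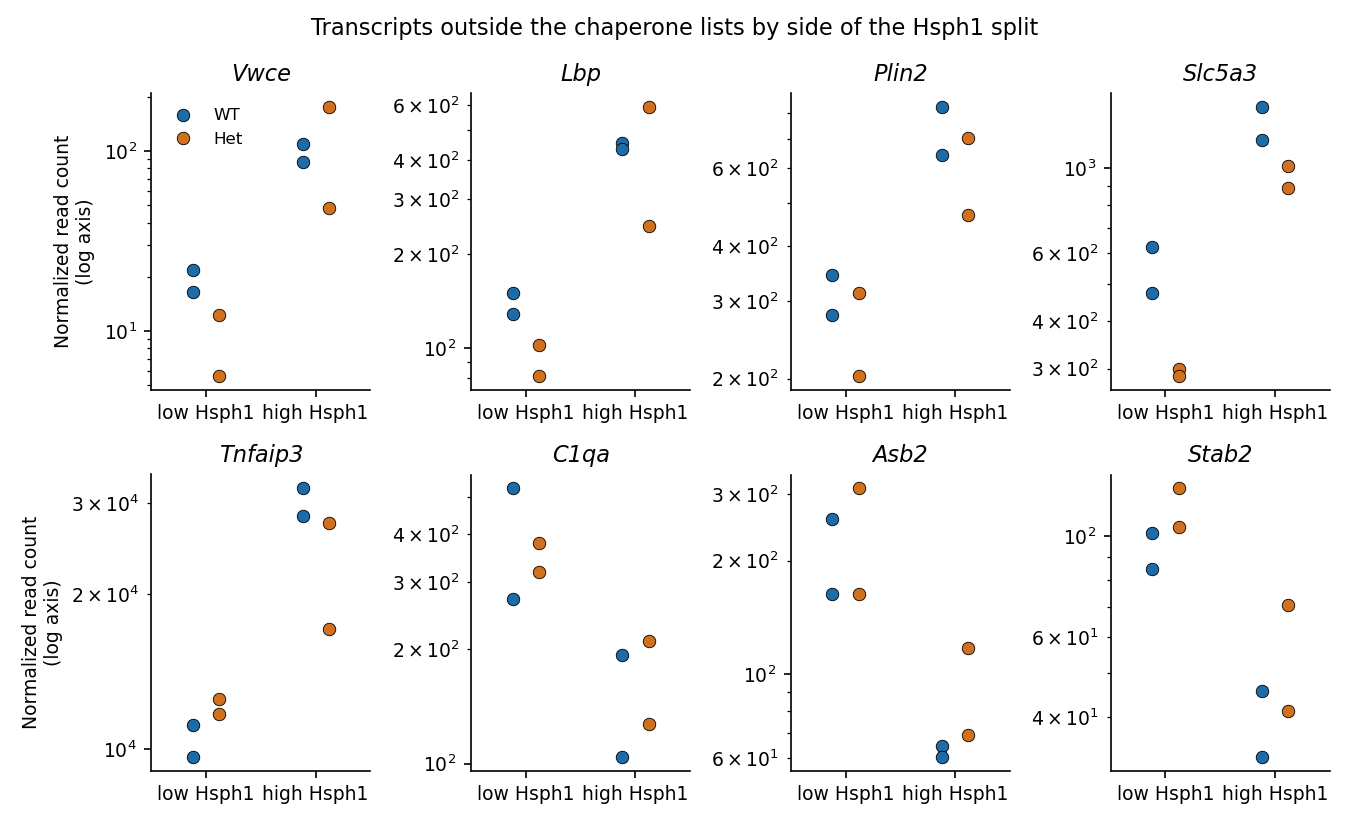
Normalized read count (log axis, a separate range in each panel) of 8 transcripts outside the chaperone lists, by side of the Hsph1 split; each point is 1 library, blue for WT and orange for Het. Vwce, Lbp, Plin2, Slc5a3 and Tnfaip3 are higher and C1qa, Asb2 and Stab2 lower in all 4 high libraries.

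DNA damage genes are of interest beside Brca1, a homologous recombination factor. Of 18 homologous recombination genes, 14 were higher and 4 lower in the high libraries (median 0.21), and Brca2, Rad51c, Brip1, Rbbp8 and Mre11a were higher without overlap. Brip1, a helicase that binds Brca1, was at 170.8, 124.2, 169.6 and 319.9 in the high and at 92.8, 112.2, 51.6 and 112.9 in the low libraries (difference 1.05, SE 0.34). Rad51c was at 115, 101.7, 92.1 and 88.8 against 24.1, 62.4, 63.6 and 58.3 (difference 1.01, SE 0.34). Brip1 came under 2-fold without Het 31 or Het 56 (0.72 and 0.76), and Rad51c without WT 45, WT 54 or WT 65 (0.88, 0.65 and 0.95). These transcripts are long, with a median length of 4670.5 bases against 3395 over all genes compared, and after centring by length the list's median was 0.13. Brca1 itself did not follow the split, with a difference of 0.02 (SE 0.20), 0.39 in WT and -0.36 in Het.

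Of 20 targets of p53, 15 were higher and 5 lower (median 0.24). Bbc3, which encodes the death protein Puma, was at 1102.4, 779.3, 966 and 1021.2 in the high and at 726.7, 758.8, 547.4 and 660.2 in the low libraries (difference 0.52). Fas, a death receptor, and Polk, a polymerase that copies past lesions, were higher by 0.52 and 0.54, while Bax, another death protein, was lower by a difference of -0.25, each without overlap. The 17 apoptosis genes had a median of 0.00.

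On the lower side, the naming rule took 11 of the 21 genes. C1qa, C1qb and C1qc, the 3 chains of complement C1q made by macrophages, were all apart. C1qa was at 192.4, 103.9, 209.2 and 126.7 in the high libraries and at 529.4, 270.4, 380 and 318.9 in the low ones (difference -1.25, SE 0.28). C1qb differed by -1.29 and C1qc by -1.03, and C1qc came under 2-fold after centring by transcript length (-0.85) and without WT 45, WT 54, Het 31 or Het 56 (-1.0, -0.92, -0.83 and -0.90). A pair of receptors of scavenging cells were lower as well: Marco of macrophages (difference -1.26, or -0.87 without WT 65) and Stab2 of sinusoidal endothelium, at 45.7, 32.6, 70.7 and 41.2 against 102, 84.8, 105.1 and 127.9 (difference -1.17). Hk3, a hexokinase of myeloid cells, differed by -1.0, at the 2-fold limit, and by -0.88, -0.76 and -0.94 without Het 31, Het 56 and WT 65.

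Asb2, a subunit of an E3 ubiquitin ligase, was at 64.4, 60.3, 117.2 and 69.2 in the high libraries and at 257.3, 163.1, 311.4 and 162.8 in the low ones (difference -1.51), the largest difference among the lower genes named. Nmral1, an NADPH sensor, differed by -1.30, Hap1, a huntingtin partner, by -1.20, the transglutaminase Tgm1 by -1.07 and Rgl1, an exchange factor for Ral, by -1.05. Without WT 65, Nmral1, Hap1 and Tgm1 differed by -0.998, -0.90 and -0.60, without WT 54 Tgm1 by -0.88, and without Het 31 or Het 56 Rgl1 by -0.89 and -0.72. Of the 21 lower genes, 11 had a mean under 50, and 9 were at least 2-fold lower in each genotype taken separately.

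Markers of other spleen cells leaned lower in the high libraries, mostly with overlap. All 15 myeloid markers compared were lower in the high libraries (median -0.73), and their summed level, over 16 genes found, was 15316.8 to 19278.3 in the high and 17680.2 to 26009.3 in the low libraries. Without overlap were 2 of the 15, C1qa and C1qb. All 15 B cell markers were lower (median -0.60), none without overlap, with sums of 10278.9 to 26600.2 and 15771 to 66292.1, the last in Het 31, and without Het 31 the median was -0.25. Of 11 NK cell markers, 10 were lower (median -0.31) and 1, Nkg7, did not overlap, with sums of 16436.1 to 20368.6 and 17785.3 to 29235.7. The NK median was 0.12 in WT and -0.55 in Het, -0.18 after centring by transcript length, and 0.03 without Het 31 or without Het 56. The 10 neutrophil markers had 5 higher and 5 lower (median -0.08). The sums overlapped for all 4 cell types. The hemoglobin genes Hba-a1, Hba-a2, Hbb-b1 and Hbb-b2 were listed at 0 in every library, and so were Klra4 of the NK list and Eno1 of the glycolysis list. In such bulk samples, fewer cells of a type and less RNA per cell cannot be told apart, and the part of these cells in the lower genes was not tested.

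Hmox1, which degrades heme and is high in spleen macrophages, was at 528.2, 459.9, 974.6 and 416.2 in the high and at 1592.2, 936.4, 1651.1 and 837.9 in the low libraries (difference -1.10, SE 0.30), with overlap through Het 53. Of the 18 other genes of the oxidative stress response, 16 were lower, with Gpx1, a glutathione peroxidase, at 4097.2, 3547.8, 3561.8 and 3597.2 against 5890.4, 4650.8, 6256.9 and 6091.5 (difference -0.62). The list of 19 had a median of -0.21, or -0.12 after centring by transcript length. Its summed level did not overlap, at 38834.5 to 40691.9 in the high and 41577.3 to 49496.6 in the low libraries. Of 22 interferon-stimulated genes, 21 were lower (median -0.19), none without overlap. Their median was -0.05 without Het 139 and -0.45 without Het 31. The summed level of these genes was 97362.7 in Het 139 and between 49733.9 and 65653.8 in the other libraries.

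The defining T cell markers Cd3e and Cd8b1 overlapped between the sides, while some T cell genes did not. Cd3e ran from 11037.3 to 16132.1 and Cd8b1 from 41051.8 to 55751.7 over the 8 libraries. Dapl1, a gene of naive T cells, was lower in the high libraries, at 4259.1, 3662.1, 3407 and 4160.4 against 5516.4, 4889.3, 5062.9 and 8848.2 (difference -0.61). Ptprc, which encodes CD45, was higher without overlap (difference 0.45). Of the 22 T cell receptor signalling genes (median -0.04), the kinase genes Zap70, Prkcq and Csk and the adaptor gene Lat were lower and Plcg1 and Ptprc higher without overlap, with differences between -0.19 and 0.45.

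Housekeeping lists of short transcripts were lower. Of 36 ribosomal protein genes, 30 were lower (median -0.24), and their summed level did not overlap, at 575660.9 to 624742.9 in the high and 662449.3 to 795891.7 in the low libraries. Of 30 oxidative phosphorylation genes, 29 were lower (median -0.21), and of 34 ubiquitin and proteasome genes, 29 were lower (median -0.18). Their medians after centring by transcript length were -0.07, -0.06 and -0.03. Each of these medians was thus closer to 0 once length was centred. Without centring, the ribosomal median was -0.07 in WT and -0.49 in Het. The oxidative phosphorylation median was -0.06 and -0.36, and the ubiquitin and proteasome median -0.07 and -0.28. The 16 glycolysis and glucose entry genes, whose transcripts are near the median length, had 13 lower and a median of -0.20, which was -0.17 after centring.

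**Figure D3:**
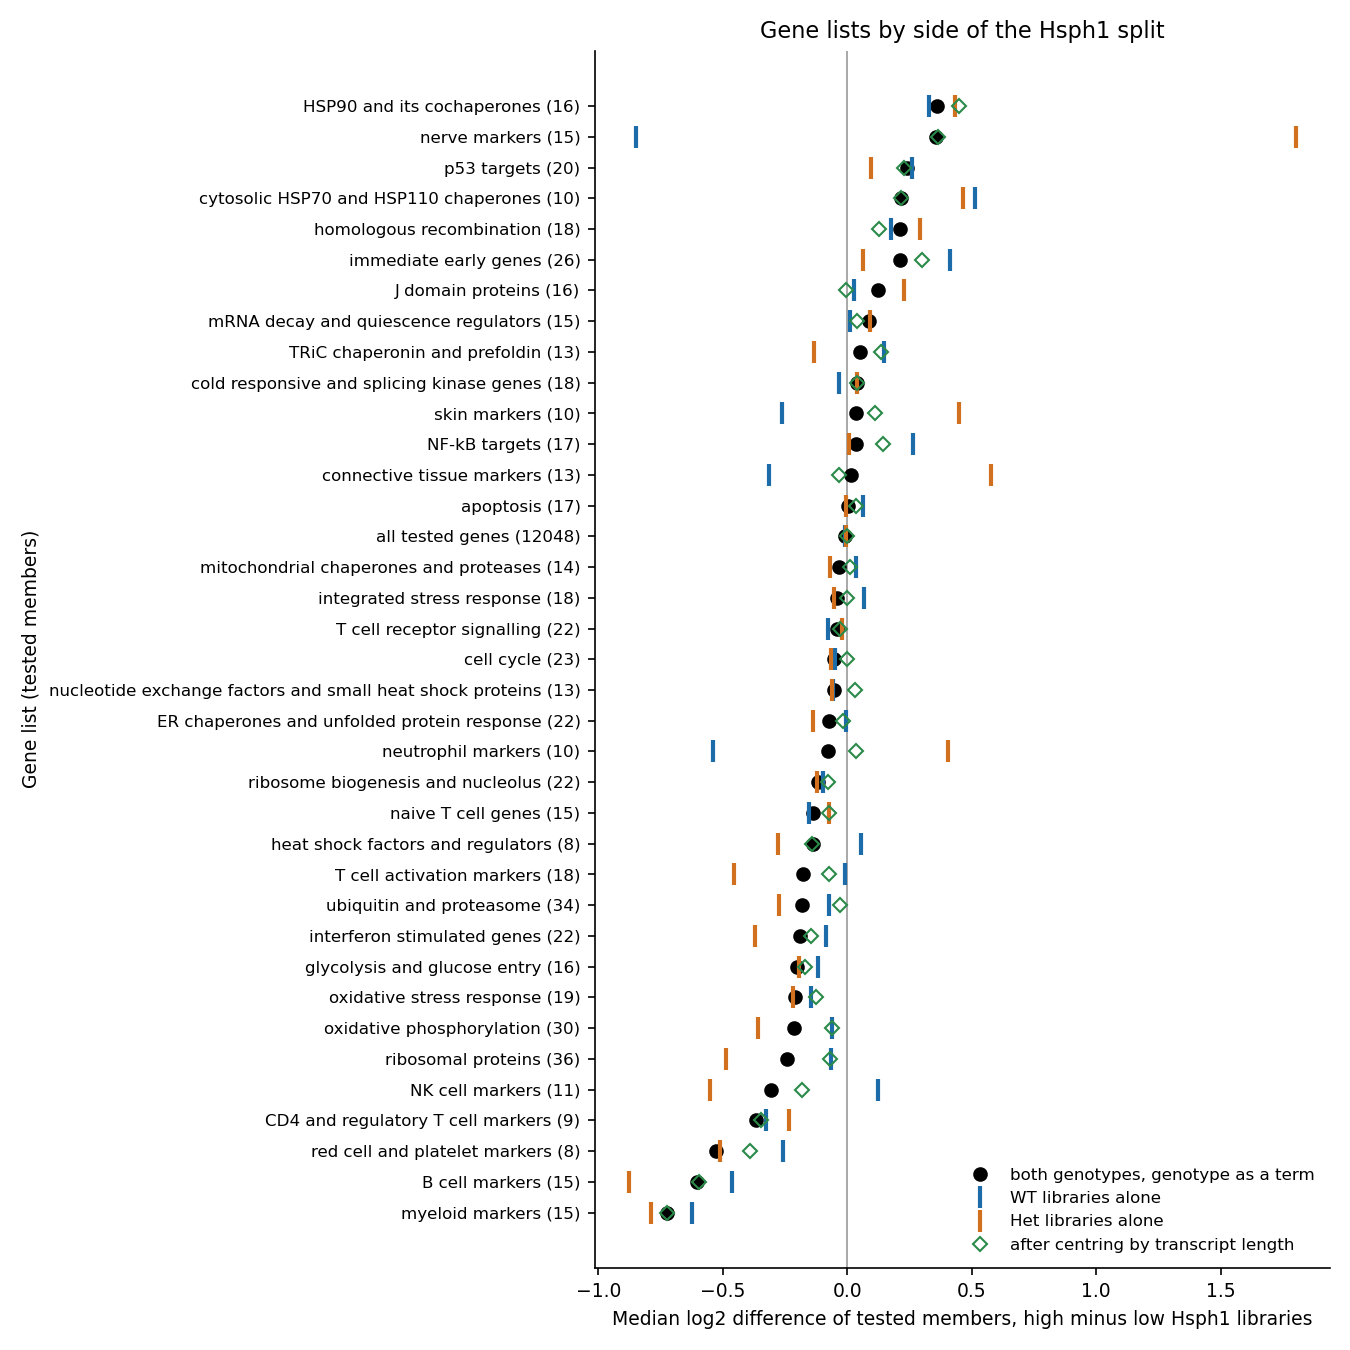
Median log2 difference, high minus low Hsph1 libraries, of the members compared in each gene list (number in brackets): black points for both genotypes with genotype as a term, blue and orange ticks for WT and Het alone, green diamonds after centring by transcript length. HSP90 cochaperones lie at 0.36 and myeloid markers at -0.73, and the ribosomal list comes to -0.07 after centring; nerve markers differ in sign between the genotypes.

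The length of transcripts moved with the split over the whole genome. In 5 equal classes of transcript length, from shortest to longest, the median difference was -0.19, -0.09, -0.02, 0.05 and 0.21. The share of genes higher without overlap went from 1.09% in the shortest to 22.5% in the longest class, and the share lower from 12.7% to 0.965%. In the longest class, the median deviation from the mean of the 8 libraries was 0.13, 0.13, 0.10 and 0.07 in WT 45, WT 65, Het 53 and Het 56, and -0.07, 0.03, -0.20 and -0.19 in WT 54, WT 57, Het 31 and Het 139. Across the 11919 genes with a length, which are not independent replicates, Spearman's rho between length and difference was 0.409. Within WT it was 0.279 and within Het 0.402. The trend was not particular to the split: rho between length and the Het minus WT difference was -0.316. The median Het minus WT difference was 0.10 in the shortest and -0.09 in the longest class.

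Base composition went the other way: rho with transcript GC content was -0.269, and the median difference was 0.11 in the class with the lowest GC content and -0.13 in the highest. Of the 58 genes higher and apart, 25 lay in the longest class and 5 in the shortest, with a median length of 4714.5 bases. Of the 21 lower genes, 1 lay in the longest and 7 in the shortest, with a median of 2690 bases. After centring each library by length class, an alternative chosen after seeing the data, 68 genes were apart, 52 of them among the 79, and 1236 did not overlap, 914 of them among the 1685. Of the 31 genes named that were apart, 7 came under 2-fold with this centring: Hspa4l (0.96), Tnfaip3 (0.98), Rad51c (0.96), Brip1 (0.84), Tgm1 (-0.98), C1qc (-0.85) and Hk3 (-0.98). The medians of the HSP90, B cell, myeloid and p53 lists were 0.45, -0.60, -0.72 and 0.23 after centring. Whether length or RNA quality has a part in the other differences was not tested.

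**Figure D4:**
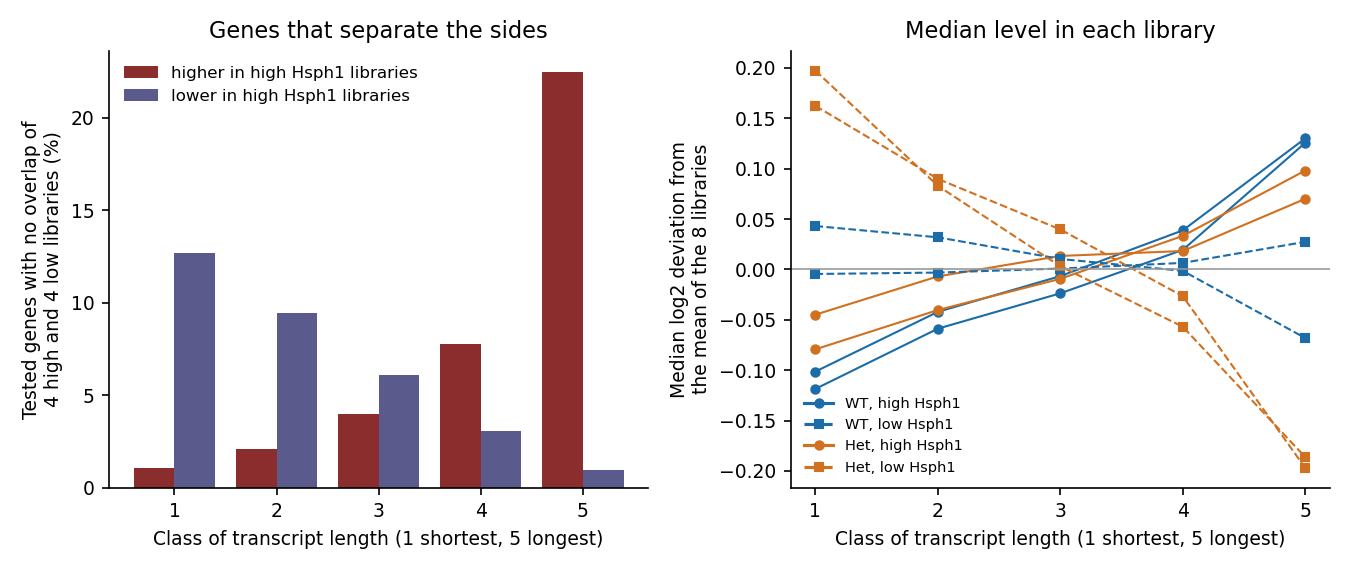
Left, the percentage of genes in each of 5 classes of transcript length whose 4 high and 4 low libraries did not overlap, higher in red and lower in blue. Right, the median log2 deviation of each class from the mean of the 8 libraries, 1 line per library, solid for high and dashed for low Hsph1; in the longest class the 4 high libraries lie between 0.07 and 0.13, above the low libraries.

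The differences within the genotypes, which rest on separate libraries, can be set side by side. Across the 12048 genes Spearman's rho between the WT and the Het difference was 0.367, a description in which both differences share the length trend. Overlap judged within WT and within Het, in the same direction, left 2487 genes (20.6%) separated in both, 1303 higher (10.8%) and 1184 lower (9.83%). Far from this pattern lay 28 genes with a WT difference below -4, none of them without overlap. They included pancreatic enzymes such as Cpa1, at 0.8 and 0.7 in WT 45 and WT 65, 2057.5 and 3260.9 in WT 54 and WT 57, 5449.9 and 298.5 in Het 53 and Het 56, and 25.1 and 6211.8 in Het 31 and Het 139. In Het the order of the sides was not that of WT, and the levels overlapped between the genotypes.

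**Figure D5:**
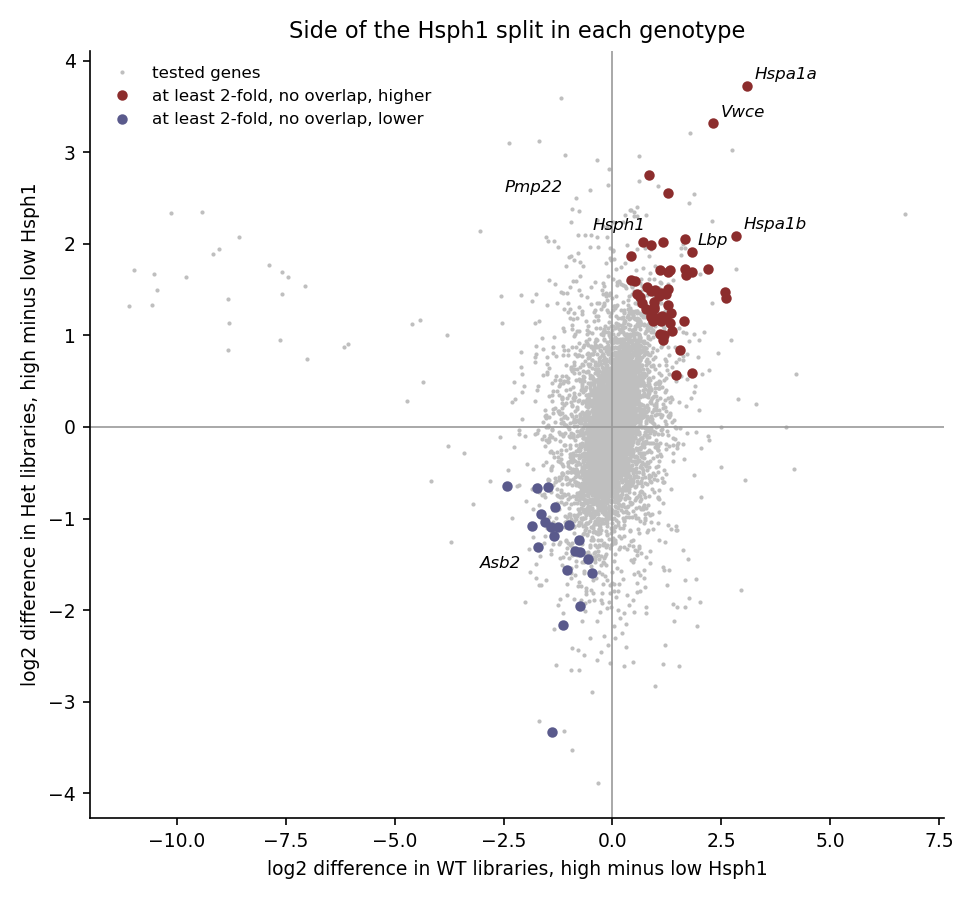
Log2 difference, high minus low Hsph1, in the WT libraries (horizontal) and in the Het libraries (vertical) for the 12048 genes compared; red and blue points are the 58 higher and 21 lower genes that were apart. Hspa1a and Vwce lie above 2 on both axes, Pmp22 differs in sign between the genotypes, and the points left of -4 include the pancreatic enzyme genes.

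Genotype is the contrast the labels give, and it was tested. By limma, 62 of the 12048 genes (0.515%) passed, all lower in Het, and 987 had an unadjusted p under 0.05. Nerve markers moved with genotype: of 15 compared, 8 were among the 62, with a median Het minus WT difference of -5.36. Of 13 connective tissue markers 1 was, Dcn, and the list's median was -2.18. The 10 skin markers had a median of -1.38 and none passed. The connective tissue sum was 11502.5 and 12802.2 in WT 45 and WT 54. In WT 65 and WT 57 it was 6822.5 and 7654.2, within the 5962.5 to 7966.4 of the Het libraries. The skin sum was 8010.4 and 6223.5 in WT 45 and WT 54. In WT 65 and WT 57 it was 1248.9 and 1311.5, within the 1143.5 to 2301.3 of the Het libraries. The summed level of the nerve list was 11679.2, 16570.5, 15336.2 and 15276.6 in WT 45, WT 65, WT 54 and WT 57 and 10051.9 to 10825.7 in the Het libraries. This sum fell far less than the median member, so it rests mostly on members that did not fall as far. The part of these tissues in the other calls was not tested. Transcript length also moved with genotype (rho -0.316), and after centring by length class 68 genes passed, 61 of them among the 62. With the side of the split as a term, 59 passed, of which 51 were among the 62. The count was 30, 27 and 21 without Het 139, Het 31 and Het 53, and 16, 11 and 16 without WT 54, WT 57 and WT 65. None of the 63 chaperone genes passed. The Het minus WT difference was -1.07 for Hsph1 (SE 0.52, limma adjusted p = 0.641), -0.64 for Hspa4l (limma adjusted p = 0.66) and -0.57 for Hsp90aa1 (limma adjusted p = 0.662). With the side of the split as a term, limma's adjusted p was 0.0405 for Hsph1 and 0.0244 for Hspa4l, but that term was made from Hsph1 in these same libraries, so these values support nothing.

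The genes outside the chaperone lists that the naming rule took for the largest differences between the sides did not pass the genotype test, with limma adjusted p of at least 0.69 for each one described.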

How the data were processed

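Poly(A) RNA of naive CD8 T cells was sequenced in 4 WT and 4 Het libraries with a stranded kit, per the labels' protocols. The authors deposited normalized read counts, a signal per gene with 1 decimal, for 22609 genes. The submitters' processing notes list CASAVA, TopHat2, HTSeq, DESeq and mm9 with no version or role. For the counting, a strand setting is not given in the sources used here. When the deposited values were sorted, the libraries lay within 2% of their mean at each of 9513 ranks (those averaging 100 or more), so every library has the same distribution and a total between 27488636.8 and 27489670, and neither total RNA nor read number can be read from it.

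Libraries were split in a script at an Hsph1 value of 10000. Genes with a mean of at least 10 were fitted with limma 3.58.1 in R 4.3.3 on log2(value + 1), with a trend on mean level. High minus low Hsph1 was fitted with genotype as a term and given with no p-value. Log2 differences understate the change of low genes, and a few units near 0 are a few reads. Het minus WT was tested 2-sided, with Benjamini-Hochberg adjustment over all 12048 genes and a threshold of 0.05.

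The members and the 37 gene lists (664 genes, 650 found) were chosen with earlier results of these data known. The genes named were Hsph1, chaperones that were apart, up to 12 named genes per direction with the largest difference and a mean of at least 50 on 1 side, and, of other lists, members apart or the 2 with the largest difference. Others, and the pancreatic and pituitary genes, were chosen after their values were seen. A few genes that the rule takes are not reported here. Transcript length and GC content were those of the longest GENCODE transcript of each gene. Promoter windows came from RefSeq, and both were matched by name. Other settings tried were a pseudocount of 0.5 or 5, all genes with a value above 0, a minimum mean of 50, median ratio scaling, no trend, each genotype alone, each library left out, and, chosen after seeing the data, centring by 5 classes of transcript length and overlap judged within each genotype. Python 3.11.15 was used for summaries.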

Additional observations from a re-analysis of the deposited data

Results flagged for a closer look

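The genes named and the summed levels of the marker lists were screened for a library standing far from its genotype. It was judged by the share of the 4 libraries' range that separated the library from its neighbour. The sums of the other lists were not screened. A library stood far in 7 of 228 groups (3.07%), where chance gives about 1 in 20. Hap1 was at 78.9 in Het 31 and between 31.7 and 39.2 in the other Het libraries, so its lower level in the high libraries rests, within Het, on Het 31. Pfdn5, a prefoldin subunit, was at 4283.2 in WT 65 against 6216.8 to 6598.1 in the other WT libraries. Igfbp4 was at 12151.4 in WT 57 against 10277.5 to 10572.2. Ifi44, an interferon-stimulated gene, was at 749.6 in Het 139 against 64.9 to 109.6.

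Het 56 stood apart from the other Het libraries in nerve and skin genes: Pmp22, a myelin protein, was at 38.3 there against 1.5 to 4.9, and Dsg1a, a desmosomal cadherin, at 49.2 against 1 to 5.6. The summed nerve markers were lowest among Het in Het 139, at 10051.9 against 10758.8 to 10825.7. That sum rests mostly on members that differed far less between the genotypes than the list's median of -5.36, so it says little of most nerve markers. Pmp22 also differed in direction between the genotypes. High minus low Hsph1, it differed by -0.85 in WT and 2.5 in Het, so that WT minus Het was -3.35. That difference was not tested, and in Het it rests on Het 56.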

How the results depend on the processing

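The counts of genes depended most on how many libraries had to be free of overlap, which is part of how those alternatives are built. In the WT libraries alone 392 genes were apart (175 higher, 217 lower) and 5365 did not overlap, and in the Het libraries alone 564 (311 higher, 253 lower) and 5751. With overlap judged within WT and within Het, 138 were apart. With any value above 0, 137 were apart, 50 of them lower, and 123 passed the genotype test. With a mean of at least 50, 51 were apart, 10 of them lower, and 14 passed the genotype test. Leaving out 1 library gave 86 to 169 genes apart, 51 to 112 higher, 27 to 81 lower, 1913 to 2630 without overlap, and 11 to 91 past the genotype test. Of 1768 differences of named genes between the sides under the alternatives, 1709 moved by less than 1 SD and 59 by more. A reversal was counted only for genes without overlap, and leaving libraries out cannot reverse those, so its count of 0 carries no weight. Some genes with overlap did change sign. Pmp22 differed by 0.83 with all libraries and by -0.85 in WT alone, and Hspe1 by 0.36 and by -0.09 in Het alone. Of 629 list medians, 574 moved by less than 1 SD and 55 by more. Of the 31 genes named that were apart, 12 came under 2-fold without 1 library, and 14 in some setting that kept both genotypes. Of 1656 Het minus WT values of named genes, 9 lost the call, all of Pmp22 (limma adjusted p 0.0357 with all libraries), and 2 gained one, Hsph1 and Hspa4l with the side of the split as a term. No paired analysis was possible because the genotypes share no replicate number. Depth limits genes near 0, where 1 read is worth 0.2 to 0.3 in the WT and 0.9 to 1.9 in the Het libraries.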

Other observations

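Transcripts of exocrine pancreas, which lies against the spleen, were present at very different levels. The summed normalized read count of 10 pancreatic enzyme genes was 16.7 in WT 45, 51.7 in WT 65, 21343.9 in WT 54, 31236.4 in WT 57, 274.7 in Het 31, 56549.3 in Het 53, 2268.9 in Het 56 and 58538.5 in Het 139. None of the 10 genes separated the high from the low Hsph1 libraries, and their limma adjusted p for Het minus WT lay between 0.74 and 0.776.

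Pituitary hormone genes were high in 3 WT libraries, 1 of which, WT 57, was also high in the pancreatic genes. The sum of 5 of them was 13405.5 in WT 45, 5070.9 in WT 57 and 1020.6 in WT 65, and between 36.3 and 54.9 in the other 5 libraries. Gh, growth hormone, was at 4842.1 in WT 45 and 1087.8 in WT 57, and Pomc, the precursor of corticotropin, at 4149.9 and 211. None of the 5 separated the sides of the split. Both gene sets were chosen after their values were seen.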
